A study of Mus musculus with 16 samples.

Results

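The proteins of the cytosolic ribosome are encoded by a large family of genes that were read here across progenitor cells of mice with and without an enhancer of *Spi1*, the gene of the transcription factor PU.1. Members were chosen by symbol alone, as genes named Rps or Rpl followed by a number, together with *Rpsa*, *Rplp0*, *Rplp1* and *Rplp2*, with rows named as pseudogenes (-ps) left out. The rule took 89 of the 54347 genes of the table. By the GENCODE M21 annotation of GRCm38, 83 of them are protein coding and 6 are annotated as pseudogenes although their names do not say so. They were sorted into 77 core genes (31 of the small and 46 of the large subunit), 6 paralogs (*Rpl3l*, *Rpl7l1*, *Rpl10l*, *Rpl22l1*, *Rpl39l* and *Rps27l*) and the 6 loci annotated as pseudogenes (*Rps4l*, *Rps12l1*, *Rpl32l*, *Rpl6l*, *Rps3a2* and *Rps3a3*).

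The study compared preleukemic UREΔ mice, in which the upstream regulatory element (URE) of *Spi1* is deleted in the germline, with wild-type (WT) littermates, all on a C57BL/6 background and 8 to 12 weeks old. From the bone marrow of each genotype, LSKs (Lin-Sca-1+c-Kit+, a stem and early progenitor gate) and GMPs (Lin-Sca-1-c-Kit+Cd16/32+, a granulocyte-monocyte progenitor gate) were sorted, and polyA RNA was sequenced from up to 10 ng without molecular identifiers. Each of the 4 groups (WT LSK, UREΔ LSK, WT GMP and UREΔ GMP) holds 4 libraries, numbered 1 to 4 by the labels. In bulk RNA a change in the cells that passed the gate and a change in the RNA of each cell cannot be told apart.

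A ribosome joins 4 ribosomal RNAs with about 1 copy each of these proteins. The small subunit decodes the mRNA, the large subunit forms the peptide bond, and an acidic stalk on the large subunit recruits translation factors. Most of the mRNAs begin with a run of pyrimidines at the cap (a terminal oligopyrimidine tract, TOP), through which their translation responds to mTOR signaling and LARP1. Loss of a single copy of some of these genes causes Diamond-Blackfan anemia, in which red cell precursors fail.

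The start sites of 12 members are printed here, because a pyrimidine run at the start is a sequence feature that many genes of the family share. Sequences are from RefSeq (GRCm38.p6), whose promoter windows matched 64 of the 89 members by symbol, and each line gives the 25 bases before and the first 25 bases from the listed start on the coding strand, with the longest run of only C and T, or the first where several tie, in capitals:
Rps6, chr4:86857343-86857392, minus strand: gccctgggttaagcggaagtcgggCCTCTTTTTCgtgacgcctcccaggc
Rps9, chr7:3704016-3704065, plus strand: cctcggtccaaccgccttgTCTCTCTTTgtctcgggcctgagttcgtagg
Rps12, chr10:23787185-23787234, minus strand: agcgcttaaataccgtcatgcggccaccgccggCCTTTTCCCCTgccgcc
Rpl28, chr7:4792940-4792989, plus strand: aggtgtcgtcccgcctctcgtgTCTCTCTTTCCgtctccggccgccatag
Rplp2, chr7:141447626-141447675, plus strand: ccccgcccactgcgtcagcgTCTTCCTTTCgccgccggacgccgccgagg
Rpl31, chr1:39367826-39367875, plus strand: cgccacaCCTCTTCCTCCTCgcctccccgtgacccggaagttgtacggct
Rps7, chr12:28635929-28635978, minus strand: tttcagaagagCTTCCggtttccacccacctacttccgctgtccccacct
Rps27, chr3:90213624-90213673, minus strand: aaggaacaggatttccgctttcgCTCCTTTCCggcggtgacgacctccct
Rps27l, chr9:66946061-66946110, plus strand: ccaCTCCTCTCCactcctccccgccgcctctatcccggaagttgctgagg
Rpl10, chrX:74270791-74270840, plus strand: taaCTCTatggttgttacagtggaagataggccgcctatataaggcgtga
Rpl22, chr4:152325701-152325750, plus strand: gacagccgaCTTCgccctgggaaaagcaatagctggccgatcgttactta
Rpl22l1, chr3:28805483-28805532, plus strand: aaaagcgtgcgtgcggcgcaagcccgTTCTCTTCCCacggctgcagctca

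The runs of *Rps6*, *Rps9*, *Rpl28*, *Rplp2* and *Rps27* cross the listed start, that of *Rps12* begins at base 9 of the transcript, that of the paralog *Rpl22l1* at base 2, and those of *Rpl31*, *Rps7* and the paralog *Rps27l* lie before it. In *Rpl10* and *Rpl22* the longest run held 4 bases. Only the first listed start of each gene was read, here and in the counts below, and whether these cells use it was not tested. A run of at least 7 pyrimidines within 20 bases on either side of the start was found in 36 of the 64 members (56.2%), against 24.2% of the 27025 genes with a window. In the whole window of 300 bases (250 before and 50 after the start), read on both strands, CCGGAA, a core of sites for ETS family factors, was present in 32 of the 64 members (50%), against 15.2% of all windows. GAGGAA, the PU box after which PU.1, itself an ETS factor, is named, was present in 18 members (28.1%), against 28.3% of all windows. GGAAGT, another form of ETS sites that can overlap either of these motifs, was present in 30 members (46.9%, against 24.1%), and GGGCGG, the GC box, in 38 (59.4%, against 35.9%). CACGTG, the E-box, stood in 5 members (7.81%, against 7.24%) and TATAAA, the TATA box, in 7 members (10.9%, against 14.2%). These matches describe letters in a window and not binding.

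The 83 protein coding members lay on 19 chromosomes, with 14 on chromosome 7 and 4 on the X chromosome. A snoRNA gene, whose product guides the modification of ribosomal RNA, lay inside 30 of them (36.1%), against 1.19% of the 21803 protein coding genes of the table, and these 30 members held 58 snoRNA genes.

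Libraries held between 20028302 and 29128858 counts, and no pair of replicates of a group agreed within sampling noise. *Spi1*, the targeted gene, was at 127, 69.5, 134 and 165 CPM (counts scaled to library size, with TMM) in the 4 WT LSK libraries and at 2.84, 4.44, 3.66 and 1.13 CPM in UREΔ LSKs. In GMPs it was at 139, 84.7, 181 and 153 CPM in WT and 17.3, 28.6, 23.6 and 15.6 CPM in UREΔ, so that the genotypes did not overlap in either cell type. *Ly6a*, which encodes Sca-1, was at 35.1 to 122 CPM in LSKs and at most 2.88 CPM in GMPs, while *Mpo* was at 522 to 1239.6 CPM in LSKs and at 43546 CPM or more in GMPs. Other cells' markers moved with genotype. The 7 mature neutrophil markers summed to 35.1 to 177 CPM in WT LSKs against 177 to 359 CPM in UREΔ LSKs. In GMPs they summed to 49.7 to 154 CPM in WT against 218 to 994 CPM in UREΔ. Singly, 2 of these rose and 0 fell in UREΔ LSKs, and 5 rose and 1 fell (*Mmp8*) in UREΔ GMPs. The 6 monocyte and dendritic cell markers summed to 491 to 829.9 CPM in WT GMPs and to 45.7 to 234 CPM in UREΔ GMPs, and in LSKs to 49.2 to 99.8 CPM and 9.44 to 17.6 CPM. The 8 lymphoid markers summed to 58.4 to 84.2 CPM in WT against 24.6 to 35.4 CPM in UREΔ LSKs, and to 63.1 to 90.7 CPM against 12.2 to 27.8 CPM in GMPs. Of the 4 that were tested, 2 fell in UREΔ LSKs (*Cd79b* and *Igll1*) and 0 rose. In UREΔ GMPs 1 fell (*Cd79b*, log2 fold change -2.38), while 2 of the 4 had changes above 0 and the median was 0.26. The 4 mast cell and basophil markers summed to 23.2 to 44.0 CPM in WT against 84.9 to 155 CPM in UREΔ LSKs. Gene by gene, 2 of these rose and 1 fell (*Ms4a2*) in UREΔ LSKs, and 2 rose and 2 fell (*Ms4a2* and *Prss34*) in UREΔ GMPs. Of the 10 LSK markers 2 fell in UREΔ LSKs (*Cd34* and *Flt3*) and 5 in UREΔ GMPs, among them *Flt3* and *Procr*, and 0 rose in either. Of the 4 tested megakaryocyte markers *Itga2b* rose in UREΔ LSKs, and of the 9 erythroid markers *Hbb-bt* fell there. In UREΔ GMPs 0 of either list passed. The 8 GMP markers summed to 2667 to 3361 CPM in UREΔ against 3597 to 4280 CPM in WT LSKs and to 74590 to 161339 CPM against 56831 to 72656 CPM in GMPs. Of these 8, 2 rose (*Ctsg* and *Elane*) and 3 fell in UREΔ LSKs, and 4 rose and 2 fell (*Cd34* and *Ms4a3*) in UREΔ GMPs. The part of these lists in the results on ribosomal protein genes was not tested.

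The members took 2.61% to 7.16% of all counts. The share was 3.42%, 6.0%, 5.98% and 5.09% in WT LSK replicates 1 to 4 and 2.78%, 5.78%, 5.58% and 2.82% in UREΔ LSKs. It was 3.42%, 5.72%, 7.16% and 3.43% in WT GMPs and 2.61%, 4.34%, 5.45% and 4.10% in UREΔ GMPs. The groups overlapped throughout. In same-numbered pairs UREΔ was below WT in 4 of 4 in LSKs and in 3 of 4 in GMPs, which was not tested. Replicates 2 and 3 stood above replicates 1 and 4 within each group. The mean share was 5.12% ± 1.21 in WT LSKs, 4.24% ± 1.67 in UREΔ LSKs, 4.93% ± 1.84 in WT GMPs and 4.13% ± 1.17 in UREΔ GMPs (SD, n = 4).

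**Figure D1:**
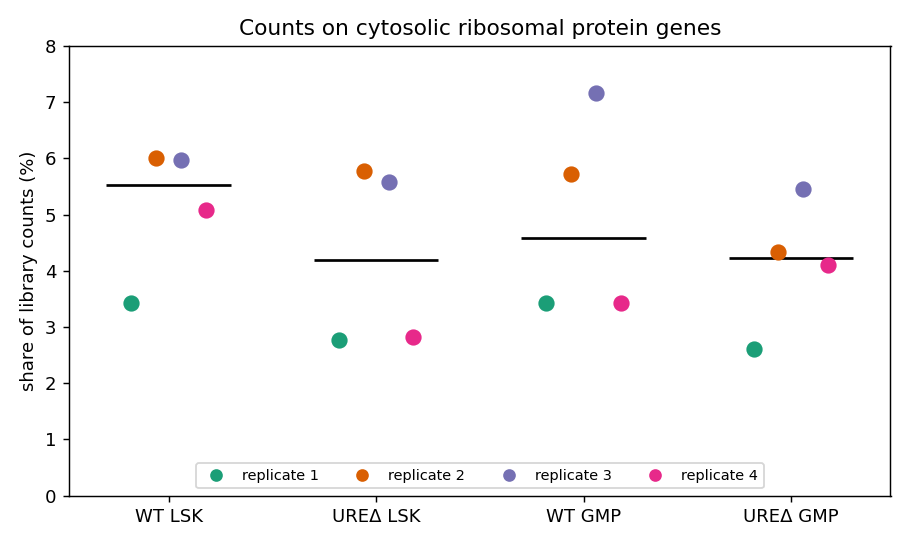
Share of all counts of a library that fell on the 89 members (vertical axis, percent) in WT LSK, UREΔ LSK, WT GMP and UREΔ GMP. Each point is 1 library, colored by replicate number, and the black line is the group median; replicates 2 and 3 lie above replicates 1 and 4 in each group, from 2.61% in UREΔ GMP replicate 1 to 7.16% in WT GMP replicate 3.

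The difference between replicate numbers ran through nearly every core gene. Replicates 2 and 3 together were above 1 and 4 for 75 of the 77 core genes in WT LSKs, 77 in UREΔ LSKs, 77 in WT GMPs and 76 in UREΔ GMPs. The median difference was 0.57, 1.07, 1.03 and 0.57 on the log2 scale in the same order, beside at most 0.04 for all 15935 genes tested. UREΔ GMP replicate 1 was the lowest library of its group for 77 of 77 core genes, and WT LSK replicate 1 for 75 of 77. The 78 mitochondrial ribosomal protein genes, which build another ribosome, followed with smaller medians of 0.21 to 0.40, the 27 translation factors and other genes with TOP mRNAs with 0.26 to 0.76, and the 70 ribosome biogenesis factors with at most 0.14. The level of *Rps6*, whose protein is a small-subunit component phosphorylated downstream of mTOR, illustrates it: 999, 1667, 1618 and 1575 CPM in WT LSKs and 798, 1759, 1621 and 832 CPM in UREΔ LSKs. Transcripts of the mitochondrial genome took 1.11% to 2.48% of counts, with the highest share in replicate 3 of each group, and their part in this pattern was not tested. All comparisons given next were fitted in edgeR with the replicate number as a block.

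Few ribosomal protein genes passed singly between UREΔ and WT in LSKs, although most had a log2 fold change below 0. Of the 86 members that passed the filter on low counts, 1 rose and 3 fell in UREΔ LSKs at an adjusted p under 0.05 (edgeR quasi-likelihood test), where 6.85% of all genes tested rose and 7.32% fell. With total counts in place of TMM 8 fell. With 1 library left out the number that fell was 1 without replicate 1 or 4 of either LSK group, 5 without UREΔ LSK replicate 2 and 8 without UREΔ GMP replicate 4. *Rps7* and *Rps9* were the core genes that fell under TMM scaling, and the other 2 calls were *Rps4l* (lower) and *Rpl32l* (higher), both annotated as pseudogenes. The log2 fold change was above 0 for 3 of the 86 members, against 52.1% of all genes, and for 1 of the 77 core genes, with a median of -0.30 on the log2 scale beside 0.02 for all genes. This median was -0.14 without UREΔ LSK replicate 4 and -0.18 without WT LSK replicate 4, and in each case 5 of the 77 core genes were above 0.

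*Rps7*, a small-subunit protein gene mutated in some patients with Diamond-Blackfan anemia, was at 509, 982, 956 and 879 CPM in WT LSKs and 253, 652, 981 and 228 CPM in UREΔ LSKs. It was lower in 3 of 4 pairs, with UREΔ replicates 1 and 4 the lowest and UREΔ replicate 3 level with the highest WT library, so that the groups overlapped. The fitted change was 1.82-fold lower (log2 fold change -0.86, SE 0.23, adjusted p = 0.0224). The call was lost without WT LSK replicate 1 or 4 or UREΔ LSK replicate 1 or 4, with changes of -0.87 to -0.62 and adjusted p of 0.0572 to 0.0791. In GMPs *Rps7* was at 579, 1155, 1303 and 637 CPM in WT and 318, 615, 1099 and 529.7 CPM in UREΔ, lower in 4 of 4 same-numbered pairs, and did not pass (log2 fold change -0.57, SE 0.23, adjusted p = 0.0946).

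*Rps9*, which encodes a small-subunit protein that is bound early in the assembly of the subunit, was at 642, 1428, 1309 and 1114 CPM in WT LSKs and 465, 1243, 1057 and 443 CPM in UREΔ LSKs. It was lower in 4 of 4 same-numbered pairs although the groups overlapped, and the change was 1.48-fold (log2 fold change -0.57, SE 0.17, adjusted p = 0.0401). This call was lost on leaving out any of 9 of the 16 libraries, and its change shrank to -0.40 without UREΔ LSK replicate 4 and to -0.41 without WT LSK replicate 4. In GMPs the change in *Rps9* was -0.27 and did not pass (adjusted p = 0.297).

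In GMPs, 1 member rose and 6 fell in UREΔ, where 12.4% of all genes tested rose and 9.44% fell. The 6 were the core genes *Rps12*, *Rps20*, *Rpl28* and *Rpl31* and the loci *Rps4l* and *Rps12l1*, and *Rpl32l* was again higher. Without replicate 1 or 3 of either GMP group 2 fell, and without UREΔ GMP replicate 4 it was 10. The median of the core genes was -0.20 beside 0.02 for all genes, and the log2 fold change was above 0 for 7 of 86 members, against 52% of all genes. The core median was -0.09 without WT GMP replicate 3, -0.36 without UREΔ GMP replicate 4 and -0.34 without WT GMP replicate 4. Of the 77 core genes 4 were above 0 with all libraries and 20 without WT GMP replicate 3. Without UREΔ GMP replicate 1, 2 or 3 this count was 12, 12 or 11. It was 1 without WT GMP replicate 4 and 0 without UREΔ GMP replicate 4. In replicates 1 and 4 alone it was 41, and in replicates 2 and 3 alone 0.

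*Rpl31*, which encodes a protein near the exit of the peptide tunnel of the large subunit, was at 229, 348, 467 and 283 CPM in WT GMPs and 177, 235, 231 and 209 CPM in UREΔ GMPs. It was lower in 4 of 4 pairs, UREΔ replicates 2 and 3 stood just above the lowest WT library (replicate 1), and the change was 1.51-fold (log2 fold change -0.60, SE 0.14, adjusted p = 0.00745). In LSKs the change was -0.16 (adjusted p = 0.519). The call in GMPs held on leaving out each of the 16 libraries.

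*Rps12*, a protein of the head of the small subunit, was at 89.6, 125, 181 and 167 CPM in WT GMPs and 44.9, 115, 72.4 and 145 CPM in UREΔ GMPs, lower in 4 of 4 pairs with overlapping groups (log2 fold change -0.68, SE 0.20, adjusted p = 0.0276). Its locus *Rps12l1*, annotated as a processed pseudogene at chr7:56014016-56014414, was at 50.6, 71.9, 128 and 111 CPM and 22.9, 57.2, 45.4 and 93.0 CPM and fell alongside (log2 fold change -0.84, SE 0.24, adjusted p = 0.0243). In WT mice *Rps12l1* was higher in GMPs than in LSKs in 4 of 4 pairs (log2 fold change 0.91, SE 0.24, adjusted p = 0.00686), a call lost with total counts (0.56) and without the replicate block (adjusted p = 0.130). The annotated transcript of *Rps12l1* is identical to that of *Rps12* over all of its 399 bases, which also overlap the antisense gene *Gm44510*, so the division of reads between the pair is uncertain and they are not independent observations. Both calls were lost without replicate 1 or 3 of either GMP group, and without WT GMP replicate 3 the changes shrank to -0.44 for *Rps12* and -0.57 for *Rps12l1*. *Rps20*, also of the small subunit's head, was lower in 3 of 4 pairs (log2 fold change -0.43, SE 0.14, adjusted p = 0.0373), and *Rpl28*, of the large subunit, in 4 of 4 (log2 fold change -0.38, SE 0.12, adjusted p = 0.0399). Both were called with changes under the 1.5-fold threshold of the study, and their calls were lost on leaving out any of 7 and 9 libraries, respectively, with changes as small as -0.29 and -0.30 without WT GMP replicate 3.

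The genotype difference with the lowest adjusted p among the members, in LSKs and in GMPs, was in a locus that is not a core gene. *Rps4l*, annotated as a transcribed processed pseudogene at chr6:148354656-148355598 on chromosome 6 and related to the X-linked small-subunit gene *Rps4x*, was at 9.45, 11.7, 8.74 and 12.4 CPM in WT LSKs and 3.70, 5.0, 2.06 and 5.93 CPM in UREΔ LSKs. In GMPs it was at 10.3, 12.5, 12.1 and 11.2 CPM and 3.18, 6.47, 3.38 and 7.14 CPM. The genotypes did not overlap in either cell type, which holds for 1 of 86 members in the lower direction in each, where 6.93% of all genes in LSKs and 6.68% in GMPs did so. The change was 2.63-fold in LSKs (log2 fold change -1.40, SE 0.24, adjusted p = 0.00135) and 2.45-fold in GMPs (log2 fold change -1.29, SE 0.24, adjusted p = 0.00198), and both calls held on leaving out each of the 16 libraries. Without the replicate block, *Rps4l* still passed in LSKs (adjusted p = 0.0193) and GMPs (adjusted p = 0.0295), and the other genotype calls did not, with *Rps7* at 0.600, *Rps9* at 0.685, *Rps12* at 0.413 and *Rpl31* at 0.145. *Rps4x* was at 453, 798, 803 and 749 CPM in WT LSKs and 438, 959.9, 754 and 416 CPM in UREΔ LSKs, with changes of -0.18 in LSKs and -0.16 in GMPs that did not pass. The annotated transcripts of the pair align over 814 bases at 79.7% identity.

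*Rpl32l*, annotated as a processed pseudogene at chr10:20208490-20208888, moved the other way at very low levels. It was at 0.256, 0.537, 0.819 and 0.282 CPM in WT LSKs against 0.468, 1.46, 2.65 and 0.627 CPM in UREΔ LSKs, and at 0.216, 0.498, 0.830 and 0.466 CPM in WT GMPs against 0.915, 2.03, 2.10 and 1.57 CPM in UREΔ GMPs. It was higher in 4 of 4 pairs in both cell types, and in GMPs the groups did not overlap, as for 2 of 86 members in the higher direction, where 7.51% of all genes did so. The changes were 1.33 in LSKs (SE 0.36, adjusted p = 0.0235) and 1.80 in GMPs (SE 0.37, adjusted p = 0.00329), and the call in LSKs was lost without any one of 6 libraries, each WT LSK library and UREΔ LSK replicates 2 and 3. Its transcript is 96.0% identical to that of *Rpl32*, which was at 1264, 1872, 2248 and 1007 CPM in WT GMPs and 1130.5, 1608, 1784 and 1855 CPM in UREΔ GMPs and whose change was 0.04, so misassigned reads of *Rpl32* cannot be told apart from reads of the locus.

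**Figure D2:**
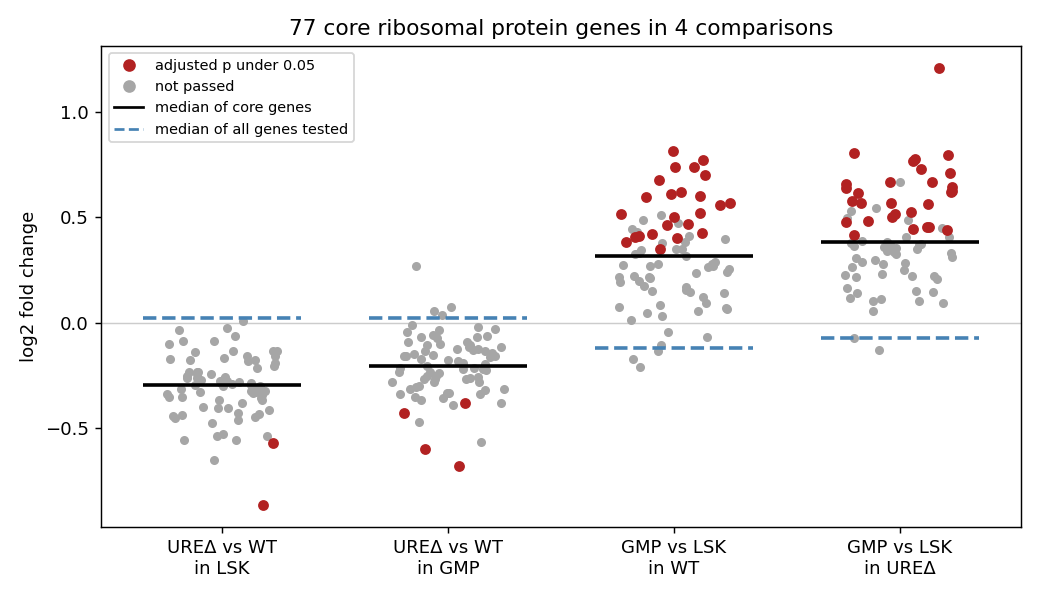
Log2 fold changes of the 77 core genes (vertical axis, 1 point a gene, spread sideways at random) in the 4 comparisons, from the edgeR fit with TMM scaling and the replicate block. Red points passed at an adjusted p under 0.05 (0 higher and 2 lower in LSKs, 0 and 4 in GMPs, 24 and 0 between GMPs and LSKs in WT, 29 and 0 in UREΔ), the black line is the median of the core genes and the dashed line that of all genes tested.

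Between the cell types, the members that passed under TMM scaling were all higher in GMPs. In WT mice 27 of 86 members were higher in GMPs than in LSKs and 0 were lower, where 20.9% of all genes tested were higher and 25.5% lower. In UREΔ mice 32 of 86 were higher and 0 lower, where 20.7% and 22.8% of all genes were. Without the replicate block 5 members passed in WT and 2 in UREΔ. With 1 library left out the count in WT ran from 14 to 40, with 17, 16 and 14 without WT LSK replicates 1, 2 and 3 and 14 without WT GMP replicate 3. In UREΔ it ran from 14 to 46, with 15 without UREΔ LSK replicate 4 and 14 without UREΔ GMP replicate 4. At an unadjusted p under 0.05 there were 35 members in WT, against 53% of all genes, and 39 in UREΔ, against 50.9%, of which 0 were lower, and DESeq2 called 0 lower in either genotype. The groups did not overlap for 4 of 86 members in WT, *Rplp2* and *Rpl28* among them, where 13% of all genes did so in that direction, and for 0 of 86 in UREΔ, where 11.5% did. The median of the core genes was 0.32 in WT and 0.38 in UREΔ, beside -0.12 and -0.07 for all genes. Without WT GMP replicate 3 the WT median was 0.20, and without UREΔ LSK replicate 4 or UREΔ GMP replicate 4 the UREΔ median was 0.23 or 0.24. In replicates 1 and 4 alone the core median was 0.10 in WT and 0.69 in UREΔ. In replicates 2 and 3 alone it was 0.54 in WT and 0.13 in UREΔ. Of 16 transcripts of the mitochondrial genome, 4 rose and 0 fell in UREΔ (median 0.40), with *mt-Nd1* at 1.14, and 1 rose and 1 fell in WT (median 0.07), and their part in the result was not tested. Changes were above 0 for 79 of 86 members in WT (44.1% of all genes) and 84 of 86 in UREΔ (46.2%).

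This direction depended on how libraries were scaled. In GMPs *Mpo*, which encodes the granule enzyme myeloperoxidase, alone took 4.04% to 10.3% of all counts, against at most 0.149% in LSKs, and the TMM factors lay between 0.796 and 0.975 in GMPs and between 1.04 and 1.2 in LSKs. With total counts in place of TMM, the median of the core genes was -0.03 in WT and 0.04 in UREΔ, with 3 members higher and 3 lower in WT and 4 higher and 1 lower in UREΔ. That scaling also moved the median of all genes to -0.46 in WT and -0.42 in UREΔ. A change of scaling shifts every gene of a comparison by nearly the same amount. The distance of the core genes from the median of all genes is therefore kept in advance, and nothing is read from it. The share of counts on the members, which rests on total counts, overlapped between LSKs and GMPs in both genotypes.

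**Figure D3:**
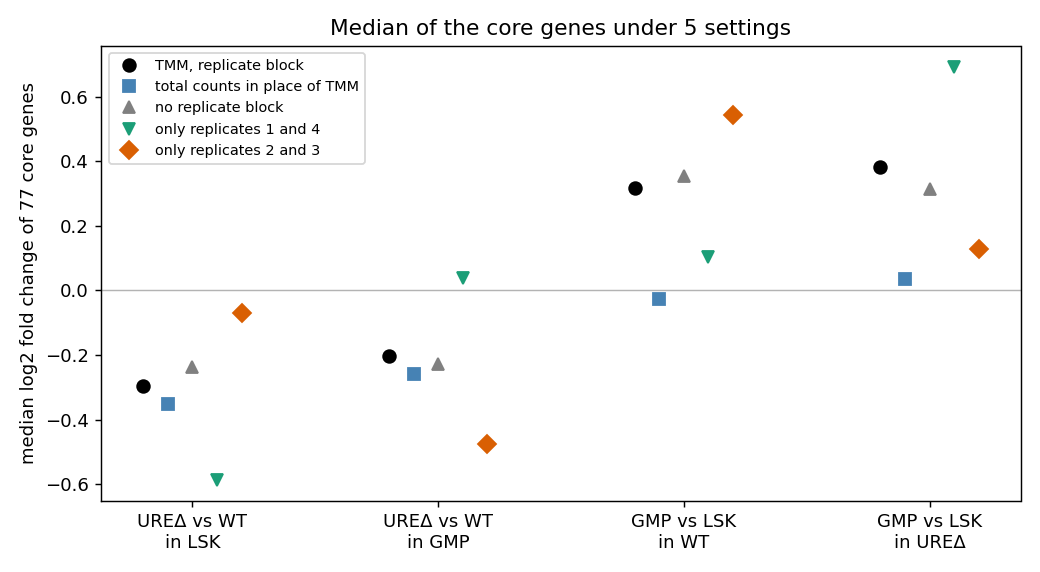
Median log2 fold change of the 77 core genes (vertical axis) in the 4 comparisons under 5 settings, each with its own symbol. The medians for GMP against LSK are near 0 with total counts (-0.03 in WT and 0.04 in UREΔ), and the genotype medians differ between replicates 1 and 4 (-0.59 in LSK and 0.04 in GMP) and replicates 2 and 3 (-0.07 and -0.48). Those for GMP against LSK differ as well, at 0.10 in WT and 0.69 in UREΔ in replicates 1 and 4. In replicates 2 and 3 they are 0.54 and 0.13.

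Among the called members, *Rps27l* rose most in GMPs of WT mice and was next to *Rpl10* in UREΔ mice. This gene, a paralog of the small-subunit gene *Rps27* and a known target of p53, was at 81.1, 167, 169 and 134 CPM in WT LSKs and 168, 406, 484 and 231 CPM in WT GMPs. In UREΔ mice it was at 87.6, 213, 158 and 97.8 CPM in LSKs and 173, 340.1, 295 and 275 CPM in GMPs. It was higher in GMPs in 4 of 4 same-numbered pairs of each genotype, by 2.25-fold in WT (log2 fold change 1.17, SE 0.15, adjusted p = 4.38e-05) and 2.01-fold in UREΔ (log2 fold change 1.01, SE 0.15, adjusted p = 0.000146), and it also passed with total counts in place of TMM, with changes of 0.82 and 0.66. Without the replicate block the WT rise passed and the UREΔ rise did not (adjusted p = 0.0192 and 0.0618). *Rps27* itself was at 64.7, 149, 118 and 82.4 CPM in WT LSKs and 58.2, 133, 137 and 55.4 CPM in WT GMPs, with a change of -0.17 that did not pass. Per base of transcript, the level of *Rps27l* over that of *Rps27* was 0.773 to 1.12 in WT LSKs and 1.99 to 2.88 in WT GMPs, and the ranges did not overlap. In UREΔ mice the ratio was 1.07 to 2.04 in LSKs and 1.62 to 3.01 in GMPs. By an exact two-sided permutation test, whose smallest p for 4 against 4 is 0.0286, p was 0.0286 in WT and 0.0571 in UREΔ, and 0.163 for both after adjustment over the 20 ratios tested, an adjustment under which a single ratio at the smallest p could not pass, so that nothing is read from it.

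*Rpl28*, with the pyrimidine run across its start shown above, was at 62.0, 88.5, 90.8 and 91.4 CPM in WT LSKs and 116, 162, 186 and 123 CPM in WT GMPs. The groups did not overlap, and the rise was 1.76-fold (log2 fold change 0.81, SE 0.12, adjusted p = 0.000130). In UREΔ mice, with 59.1, 98.5, 82.8 and 64.3 CPM in LSKs and 87.0, 124, 114 and 123 CPM in GMPs, the rise was 1.48-fold (log2 fold change 0.57, SE 0.12, adjusted p = 0.00201), a call lost with total counts (0.22) and without the replicate block (adjusted p = 0.0600). Exons of *Rpl28* overlap those of *Ube2s* on the opposite strand by 183 bases, and those of *Rpl31* overlap *Tbc1d8* by 420 bases, and the libraries are unstranded, so reads from these overlaps cannot be told apart. *Rpl31* rose 1.67-fold in WT (log2 fold change 0.74, SE 0.14, adjusted p = 0.000715) and was at 0.30 in UREΔ (adjusted p = 0.0998).

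Among the stalk genes, *Rplp2* rose in GMPs of both genotypes. It was at 167, 259.9, 199.9 and 235 CPM in WT LSKs and 290.5, 422, 478 and 281 CPM in WT GMPs, which did not overlap (log2 fold change 0.77, SE 0.18, adjusted p = 0.00346). In UREΔ mice it was at 136, 260.5, 173 and 135 CPM in LSKs and 205, 346, 272 and 392 CPM in GMPs (log2 fold change 0.80, SE 0.18, adjusted p = 0.00289). With total counts the changes were 0.42 in WT, which no longer passed (adjusted p = 0.0504), and 0.46 in UREΔ, which did. *Rplp0*, the base of the stalk, rose in UREΔ (log2 fold change 0.45, SE 0.16, adjusted p = 0.0303) and was at 0.32 in WT (adjusted p = 0.106). The call was lost without UREΔ LSK replicate 1 or 4 or UREΔ GMP replicate 3 or 4, with changes down to 0.30, with total counts (0.11) and without the replicate block (adjusted p = 0.337). *Rplp1*, the partner of *Rplp2* in the stalk dimers, was at 0.18 in WT and 0.15 in UREΔ and passed in neither.

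*Rpl10*, an X-linked gene whose product joins the large subunit late in its maturation, had the largest rise of the core genes in UREΔ mice, where *Rpl30*, of the large subunit, rose as well (log2 fold change 0.78, SE 0.16, adjusted p = 0.00171; adjusted p = 0.104 without the replicate block). *Rpl10* was at 94.7, 183, 130.1 and 69.3 CPM in UREΔ LSKs and 177, 272, 271 and 336 CPM in UREΔ GMPs, higher in 4 of 4 pairs by 2.31-fold (log2 fold change 1.21, SE 0.25, adjusted p = 0.00149), with UREΔ LSK replicate 2 above UREΔ GMP replicate 1. In WT mice it was at 135, 178, 133 and 169 CPM in LSKs and 213, 295, 259 and 130.2 CPM in GMPs, with WT GMP replicate 4 lower than its LSK partner, and did not pass (log2 fold change 0.51, SE 0.25, adjusted p = 0.106). The difference between these differences did not pass either (log2 fold change 0.70, SE 0.35, adjusted p = 0.265). The rise in UREΔ was 1.64 in replicates 1 and 4 alone and 0.84 in replicates 2 and 3 alone.

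Of the 4 tested paralogs, *Rpl7l1*, which resembles the large-subunit gene *Rpl7*, rose in GMPs in WT (log2 fold change 0.41, SE 0.10, adjusted p = 0.00562) and UREΔ (log2 fold change 0.42, SE 0.10, adjusted p = 0.00506). With total counts these changes were 0.07 and 0.08, and neither passed then or without the replicate block (adjusted p = 0.148 and 0.169). *Rpl22l1*, which resembles *Rpl22*, rose in UREΔ (log2 fold change 0.76, SE 0.24, adjusted p = 0.0186) and was at 0.10 in WT (adjusted p = 0.763). The call was lost without UREΔ LSK replicate 4 (0.57) or UREΔ GMP replicate 4 (0.52), with total counts (0.41) and without the replicate block (adjusted p = 0.434). Per base of transcript it exceeded *Rpl22* in all 16 libraries, by 2.49 to 6.38 times. The ratio was 3.49, 5.40, 6.38 and 4.28 in WT LSKs and 2.52, 4.29, 5.26 and 2.83 in WT GMPs, lower in 4 of 4 same-numbered pairs. In UREΔ LSKs it was 2.49, 4.86, 4.46 and 2.84, also lower than in WT LSKs in 4 of 4 pairs, and in UREΔ GMPs 3.51, 5.57, 4.38 and 3.65. Exact two-sided permutation tests of the 4 comparisons, which leave the pairing out, gave p of 0.2 to 0.429 (0.5 to 0.779 adjusted over the 20 ratios) and do not bear on these pairs. *Rpl3l*, the muscle relative of *Rpl3*, was at 1.16 CPM at most. *Rpl10l*, *Rpl39l* and the locus *Rpl6l* did not pass the filter on low counts, with at most 0.0418, 0.626 and 0.666 CPM.

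**Figure D4:**
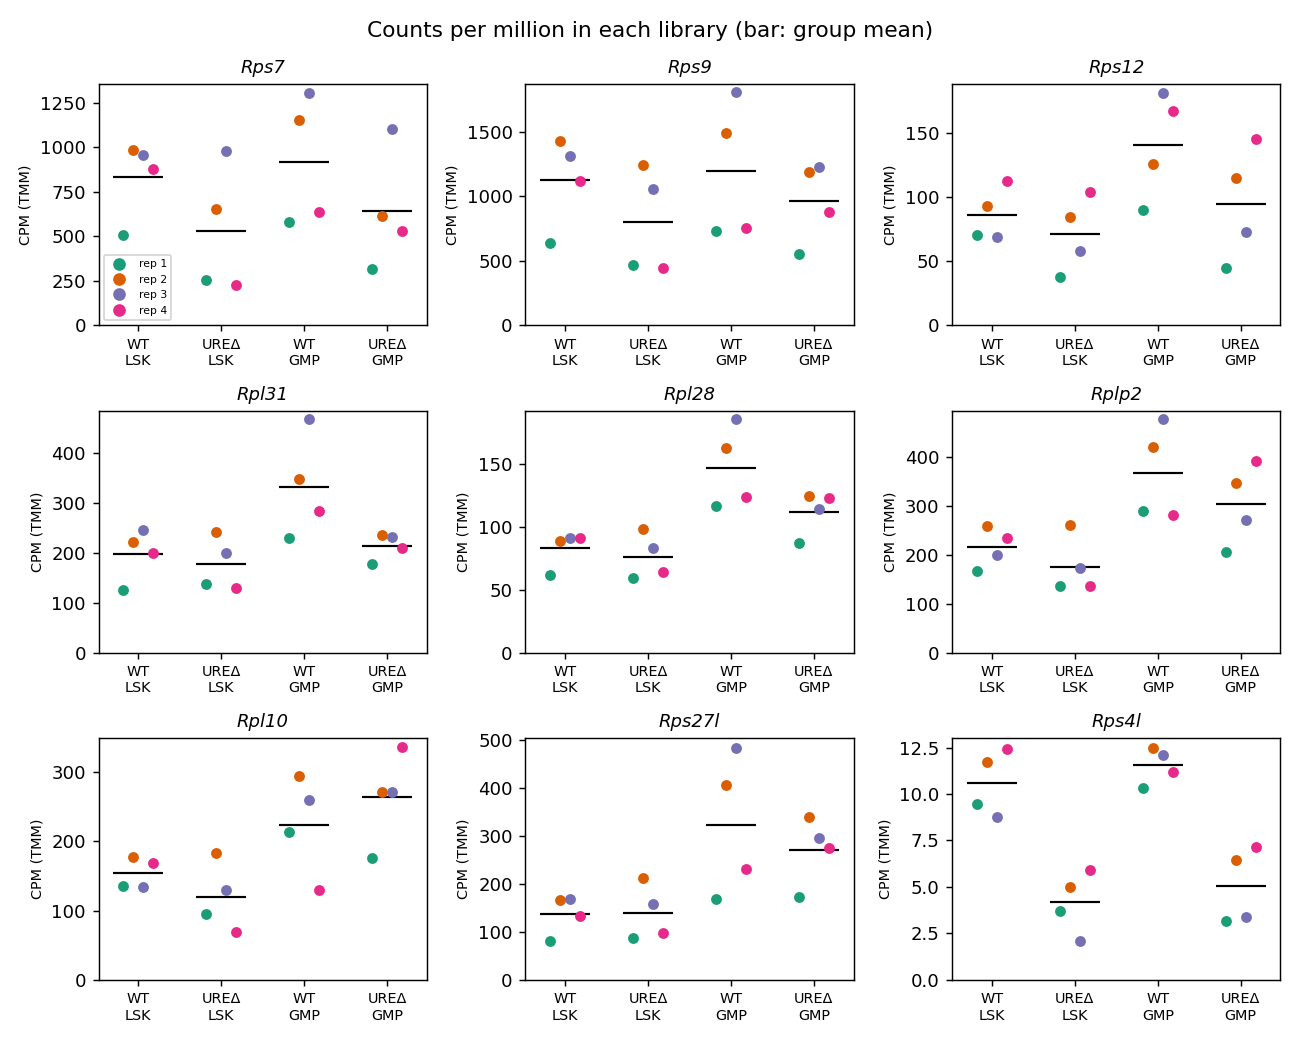
CPM (vertical axis, linear from 0, TMM-scaled) of 9 members in each of the 16 libraries, colored by replicate number, with the group mean as a black line. *Rps4l* is the 1 gene of these whose UREΔ and WT libraries do not overlap in either cell type, and *Rpl28* and *Rplp2* do not overlap between WT LSK and WT GMP.

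No difference in the effect of genotype was detected between LSKs and GMPs for any tested member. For the interaction 0 of 86 members passed in either direction, where 3.97% of all genes passed as higher and 2.6% as lower. At an unadjusted p under 0.05 it was 1 of 86, *Rpl31*, against 22% of all genes, and DESeq2 called 0 core genes. The interaction was above 0 on the log2 scale for 62 of 86 members, against 52.6% of all genes. Of the 77 core genes 55 were above 0, and 43 without the replicate block. This tally was 37 without WT LSK replicate 4, 30 without WT GMP replicate 4 or UREΔ GMP replicate 4, and 29 without UREΔ LSK replicate 4. The core median was then below 0 (-0.06 to -0.01). Without UREΔ LSK replicate 2 the tally was 64. Within replicates 1 and 4 the core median for genotype was -0.59 in LSKs and 0.04 in GMPs. Within replicates 2 and 3 it was -0.07 and -0.48. The median of the interaction thus turned from 0.59 to -0.39 between the pairs of replicate numbers. Each of these fits held 2 libraries a group.

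By group mean of TMM-scaled CPM on the log2 scale, the highest level was in WT GMPs for 67 of the 77 core genes and the lowest in UREΔ LSKs for 75. On total counts the order was another, with the highest mean share of the members in WT LSKs (5.12%) and the lowest in UREΔ GMPs (4.13%). Levels differed widely between genes. Among the 77 core genes the mean level per kilobase of transcript ran from 18 CPM for *Rpl12* to 1979 CPM for *Rps18*, with a median of 537 and quartiles of 276 and 894. Of all tested members, *Rpl3l* (0.396 CPM per kilobase), *Rps3a3* (2.05) and *Rpl32l* (2.46) were the lowest. *Rps18*, *Rpl13* and *Rps19* were the highest, and lengths of annotated principal transcripts enter these values, which are therefore rough for genes with a long alternative transcript such as *Rps15a* and *Rps20*.

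Genes of Diamond-Blackfan anemia and of the 5q deletion, 19 members with *Rps19* and *Rps14* among them, were read as a list of their own. In LSKs 1 of 19 fell in UREΔ (*Rps7*), where 7.32% of all genes did, and 0 rose, and in GMPs 0 did either, where 9.44% fell, with medians of -0.33 and -0.24. Between GMPs and LSKs 3 of 19 rose in WT, where 20.9% of all genes did, and 7 of 19 in UREΔ, where 20.7% did, under TMM, while with total counts 0 rose in either and 1 fell in WT (*Rps24*), and 3 fell in UREΔ LSKs. *Rps19*, the gene most often mutated in the anemia, was at 917, 1828, 1682 and 1407 CPM in WT LSKs and 745, 1736, 1613 and 754 CPM in UREΔ LSKs, with a change of -0.33 (adjusted p = 0.225). In GMPs of WT mice the 3 were *Rpl27* (0.74), *Rpl35a* (0.60) and *Rpl26* (0.38). In UREΔ mice these rose too, at 0.71, 0.67 and 0.44 on the log2 scale, and so did *Rps10* (0.80), *Rps29* (0.67) and *Rpl18* (0.44). In the edgeR fit without the replicate block all of these calls were lost (adjusted p of 0.163 to 0.426 in WT and 0.137 to 0.505 in UREΔ). With 1 library left out, the call of *Rpl26* in WT was lost for 11 of the 16 libraries (down to 0.26 without WT GMP replicate 3) and that of *Rpl35a* for 3 (0.43 without WT GMP replicate 3). In UREΔ *Rps29* was lost for 9 (down to 0.41) and *Rpl26* and *Rpl18* for 4 each (down to 0.30 and 0.27), with UREΔ LSK replicate 4 and UREΔ GMP replicate 4 among them for all 3. *Rpl5*, *Rpl11*, *Rpl15*, *Rpl35*, *Rps26* and *Rps28* passed in no comparison.

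2 further loci annotated as pseudogenes were high or nearly absent by the combination of genotype and replicate number. *Rps3a2*, at chr14:88123017-88123808 on the minus strand, was at 75.3, 109, 92.0 and 0.644 CPM in WT LSKs and 87.7, 126, 144 and 0.259 CPM in WT GMPs. It was at 0.0779, 110.3, 0.463 and 49.3 CPM in UREΔ LSKs and 0.0482, 111, 0.205 and 116 CPM in UREΔ GMPs. In all 8 combinations of genotype and number the LSK and the GMP library were alike, both low in 3 (WT 4, UREΔ 1 and UREΔ 3; 1 to 16 counts) and both high in 5 (1181 to 3330 counts). Where high, its counts were 11.8% to 13.7% of those of *Rps3a1*, the protein coding relative with a transcript 99.5% identical to it, while *Rps3a1* itself was at 398 to 1189 CPM. *Rps3a3*, on chromosome 13, was low and high in the same libraries, between 0.0482 and 3.32 CPM. Neither passed in a genotype comparison, with standard errors of 2.57 and 2.73 for *Rps3a2*, and the assignment of reads among these near-identical copies is uncertain.

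**Figure D5:**
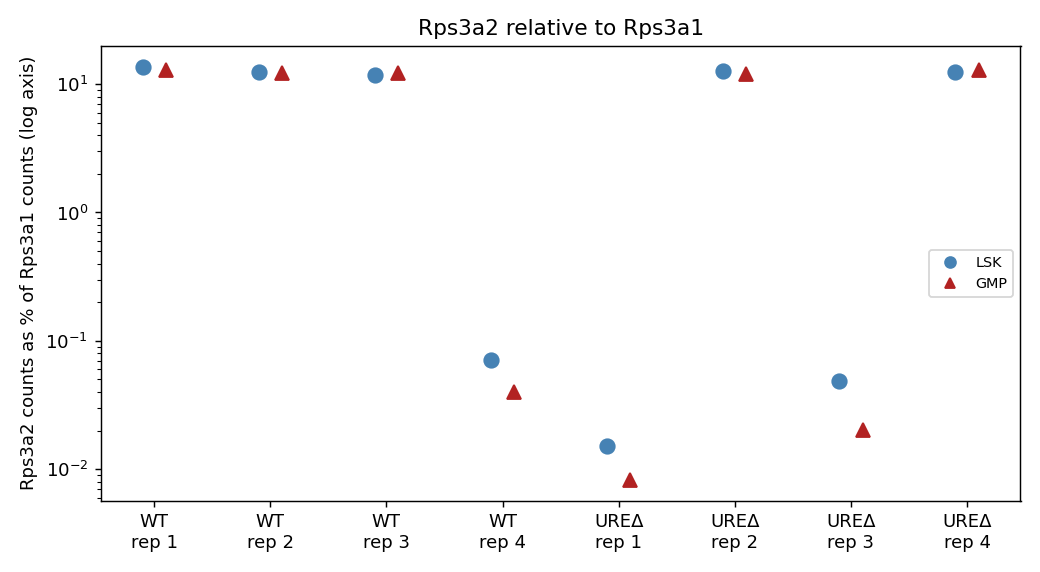
Counts of *Rps3a2* as a percentage of the counts of *Rps3a1* (vertical log axis) for each genotype and replicate number, with LSK libraries as circles and GMP libraries as triangles. The ratio is between 11.8% and 13.7% in both libraries of 5 combinations and at most 0.0707% in both libraries of WT 4, UREΔ 1 and UREΔ 3.

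The genes that build ribosomes were set beside those that are built in, with log2 fold changes from the same edgeR fit given in parentheses after each gene that passed. Of 70 ribosome biogenesis factors 56 rose in GMPs of WT mice and 0 fell, where 20.9% of all genes tested rose and 25.5% fell, with a median of 0.68, led by *Nhp2* (1.43), a core protein of H/ACA snoRNPs, and *Bysl* (1.28), needed for small-subunit assembly. In UREΔ mice 21 rose and 1 fell, where 20.7% and 22.8% of all genes did, with a median of 0.23. Total counts, which lower the medians of this and the next 3 lists by a like amount, gave medians of 0.33 in WT and -0.12 in UREΔ, and 35 rose and 2 fell in WT, and 8 rose and 12 fell in UREΔ. For the interaction 16 of 70 were lower (12 with total counts) and 0 higher, where 2.6% and 3.97% of all genes were. With genotype, 8 rose in UREΔ LSKs (2 with total counts), where 6.85% of all genes did, among them *Dkc1* (0.60), the pseudouridine synthase of H/ACA snoRNPs, and 18 fell in UREΔ GMPs (22 with total counts), where 9.44% did, among them *Grwd1* (-0.56), a chaperone of the large-subunit protein Rpl3.

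Of 78 mitochondrial ribosomal protein genes 70 rose in GMPs of WT and 61 of UREΔ mice, where 20.9% and 20.7% of all genes did, with medians of 0.72 and 0.54. With total counts they were 0.37 and 0.20, with 43 higher and 2 lower in WT and 21 and 1 in UREΔ. In UREΔ GMPs 1 was higher and 9 lower than in WT (16 lower with total counts), where 12.4% and 9.44% of all genes were, and in UREΔ LSKs 0 passed. Of 27 translation factors and other genes whose mRNAs carry a TOP tract, 9 rose and 1 fell in GMPs of WT mice and 8 rose in UREΔ, where 20.9% and 20.7% of all genes rose, and 4 fell with genotype in GMPs, where 9.44% did, among them *Eif3f* (-0.73) and *Nap1l1* (-0.62). *Gas5*, a TOP RNA that hosts snoRNAs, was the 1 that fell (-0.57). With total counts the medians of this list in GMPs against LSKs were -0.02 in WT and -0.11 in UREΔ, with 4 higher and 3 lower in WT and 0 higher and 5 lower in UREΔ.

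Of 15 subunits and factors of RNA polymerase I, which transcribes the ribosomal RNA, 6 rose in GMPs of WT mice, where 20.9% of all genes did, and 2 rose and 1 fell in UREΔ mice, where 20.7% and 22.8% did, with medians of 0.20 and 0.07. With total counts 0 rose and 3 fell in WT and 0 rose and 6 fell in UREΔ, with medians of -0.14 and -0.27. With genotype 0 passed in LSKs and 2 fell in GMPs, *Polr1c* (-0.44) and *Rrn3* (-0.32), where 9.44% of all genes did. Of 19 regulators of ribosomal protein synthesis, 1 rose and 1 fell in UREΔ LSKs, where 6.85% and 7.32% of all genes did, and 1 rose and 2 fell in UREΔ GMPs, where 12.4% and 9.44% did. In GMPs against LSKs 7 rose and 2 fell in WT and 2 rose and 1 fell in UREΔ (3 and 4, and 1 and 7, with total counts). *Cdkn1a*, a cell cycle inhibitor and p53 target, fell in UREΔ LSKs (-0.71), was higher in GMPs than in LSKs of WT (1.0) and UREΔ mice (2.05), and passed for the interaction (1.05). *Rptor*, the raptor subunit of mTORC1, rose in UREΔ in LSKs (1.46) and GMPs (1.23), and *Larp1*, which binds TOP mRNAs, fell in UREΔ GMPs (-0.60). *Pdcd4*, an inhibitor of translation initiation, fell in UREΔ GMPs (-1.35), and its interaction passed (-1.18). Of ribosomal protein genes outside the symbol rule, *Rpl36al* rose in GMPs of WT (1.12) and UREΔ mice (1.46), while *Rpl36a*, its relative, was at 0.06 and 0.41, and *Fau*, whose product is cleaved to a small-subunit protein, fell in UREΔ LSKs (-0.76).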

How the data were processed

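PolyA RNA of sorted LSKs and GMPs was sequenced in 16 unstranded libraries, 4 for each genotype and cell type. The authors quantified the reads with salmon, summed transcripts per gene with tximport and deposited estimated counts as whole numbers (expected counts, GRCm38 per the labels; the annotation release is not given in the sources used here). These were used without further rounding, and no molecular identifiers were available. Counts of 15935 of 54347 genes that passed filterByExpr were fitted with edgeR 4.0.16 (limma 3.58.1, R 4.3.3): TMM scaling, 1 quasi-likelihood fit of all libraries with group and replicate number, 5 contrasts, and Benjamini-Hochberg adjustment over all genes tested. A call is an adjusted p under 0.05. CPM values are TMM-scaled. DESeq2 1.42.0 was an alternative. The edgeR fit, with and without the block, was tried on simulated counts with known changes, for UREΔ against WT in LSKs. The other procedures were not tried on simulated data.

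The replicate number was used as a block. Same-numbered libraries deviated together (r of 0.24 to 0.71, against a mean of -0.15 for different numbers), and 14 of 16 libraries correlated best with one of their own number. The study's methods give 4 mice for each genotype and cell type. What a replicate number shares is not given in the sources used here.

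Near-identical copies were compared with blastn 2.17.0 on GENCODE M21 transcripts, which also gave positions, lengths and exon overlaps. Promoter windows were RefSeq's (GRCm38.p6). Ratios of paralogs were tested by exact two-sided permutation tests. Figures were drawn in Python 3.11.15.

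Members and gene lists were chosen with earlier results of these data known. Genes were named from the 5 largest changes each way among calls in each contrast, the 3 highest and 3 lowest levels per length, paralog pairs, stalk genes, Diamond-Blackfan anemia and 5q genes, *Rps6*, members that did not pass the filter, and, outside the family, *Spi1* and the 2 largest called changes each way in a list. Alternatives were no block, each pair of groups fitted alone, DESeq2, its size factors, total counts, TMM without the members, no filter, a fold over 1.5, named pseudogenes added to their parent, replicates 1 and 4 or 2 and 3 alone, and each library left out. Scaling to the summed core counts and a block within each genotype were chosen after seeing the data. Some results are not reported here.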

Additional observations from a re-analysis of the deposited data

Results flagged for a closer look

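In WT LSKs, 3 genes had 1 library that stood far from the other 3 relative to their spread, and each time it was replicate 1. *Rps6* was at 999 CPM there, with the others at 1575 to 1667 CPM. *Rpl28* was at 62.0 CPM, against 88.5 to 91.4 CPM, and *Rps4x* at 453 CPM, against 749 to 803 CPM. Chance marks about 1 in 20 groups of 4 in this way, which is 5.2 of the 104 groups examined, and the 3 values share 1 library. That library was also the lowest of its group for 75 of 77 core genes.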

How the results depend on the processing

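No alternative reversed a direction among the 40 named genes and comparisons, of whose 549 values under other settings 345 were past the threshold, as were 528 of 640 with a library left out. All 40 had passed in the main fit, so a reversal was unlikely from the outset. Core medians did turn. With total counts the median for GMPs against LSKs in WT went from 0.32 to -0.03. In replicates 1 and 4 alone the genotype median in GMPs went from -0.20 to 0.04. With no replicate block, that is without pairing by replicate number, the members that passed were 0 higher and 1 lower in UREΔ LSKs (from 1 and 3), 0 and 1 in UREΔ GMPs (from 1 and 6), 5 higher in GMPs of WT mice (from 27) and 2 in those of UREΔ mice (from 32). With only the 8 libraries compared and no block, these were 0 and 1 in LSKs, 1 lower in GMPs, 5 in WT and 1 in UREΔ; with the block, 0 and 1 in LSKs, 2 higher in GMPs and 18 in UREΔ. DESeq2 gave 5 lower in LSKs, and no filter gave 0 higher and 5 lower there. Total counts gave 8 lower in LSKs, 3 higher and 3 lower in WT, and 4 higher and 1 lower in UREΔ. A fold over 1.5 left 12 in WT and 17 in UREΔ. Replicates 1 and 4 alone gave 0 higher in LSKs, 0 and 0 in GMPs and 3 in WT, while 27 core genes were higher in GMPs of UREΔ mice. Replicates 2 and 3 alone gave 0 and 0 in LSKs, 0 and 0 in GMPs and 1 in UREΔ, while 18 core genes were higher in GMPs of WT mice. Relative to the summed core counts, 1 was lower in GMPs, 9 higher and 3 lower in WT and 6 higher in UREΔ. With the block within each genotype, chosen after seeing the data, 20 were higher in WT and 26 in UREΔ. The cause was not tested, except that fits of fewer libraries have fewer degrees of freedom. With each library left out in turn, counts ran from 0 to 1 higher and 1 to 8 lower in LSKs, 1 to 2 and 2 to 10 in GMPs, 14 to 40 higher in WT and 14 to 46 in UREΔ. The mean share of counts on the members then ran from 4.83% to 5.69% in WT LSKs, 3.73% to 4.73% in UREΔ LSKs, 4.19% to 5.44% in WT GMPs and 3.68% to 4.63% in UREΔ GMPs. Copies with near-identical transcripts limit what counts per locus can show.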
